A study of Mus musculus with 12 samples.

Results

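In all, 10 transcripts of the MHC class I presentation pathway are described here, in cell types that were gated on raw marker counts from single cell RNA sequencing (scRNA-seq) of spontaneous mouse breast tumors. The genes were chosen by name, as 10 of the 31053 rows of the count matrices. They were *H2-K1*, *H2-D1* and *B2m*, which encode the classical heavy chains and their light chain β2-microglobulin, the nonclassical heavy chain gene *H2-T23*, the inducible proteasome subunits *Psmb8* and *Psmb9*, the peptide transporter genes *Tap1* and *Tap2*, *Tapbp*, which encodes the loading factor tapasin, and the transactivator gene *Nlrc5*. All 10 were detected in both matrices. In GENCODE M21 (GRCm38), 8 of the genes lie on chromosome 17, from *Tapbp* (chr17:33915899-33929292) to *H2-T23* (chr17:36029773-36032855), with *B2m* at chr2:122147686-122153083 and *Nlrc5* at chr8:94434356-94527272.

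Class I molecules show peptides from inside the cell to CD8+ T cells. The proteasome cuts the peptides, TAP carries them into the endoplasmic reticulum, and tapasin helps to load them onto a heavy chain paired with β2-microglobulin. Interferons raise most of these genes through IRF factors and NLRC5, and interferon exposure replaces the constitutive proteasome subunits *Psmb5*, *Psmb6* and *Psmb7* with *Psmb8*, *Psmb9* and *Psmb10*.

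The mice carried the MMTV-PyMT transgene, in which a mammary tumor virus promoter drives polyoma middle T in mammary epithelium, and received no added treatment. PAR2 was either wild type (PyMT-PAR2 WT) or carried the G37I change that makes the receptor resistant to signaling by coagulation factor Xa (PyMT-PAR2 G37I). Cells were bead-selected for CD11c, an integrin of macrophages and DCs, from late-stage tumors, or for CD4 and CD8 from mid-size tumors, then frozen, thawed and run on the 10x platform, with 3 samples per genotype and selection (12 in all). The deposited barcodes name no sample, so each matrix pools 6 samples, counts as 1 sample, and allows no comparison of genotypes and no p-value.

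The CD11c-selected matrix kept 11639 cells with 123642015 UMIs (unique molecular identifiers, 1 per captured mRNA) and the CD4/CD8-selected matrix 22806 cells with 135965765 UMIs. The barcodes of each matrix run through the alphabet 6 times. These 6 barcode runs are linked to no sample or genotype, and the range over runs of at least 20 cells is given as a description of spread. In all, 76 and 51 barcodes occurred more than once in the CD11c- and CD4/CD8-selected matrix. Levels are UMIs of a gene summed over the gated cells per 1000000 UMIs of those cells (CPM), with exact 95% Poisson intervals (CI) that cover counting error only. They are shares of the captured RNA, so a lower level and a larger amount of other RNA per cell cannot be told apart.

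Tumor cells were gated by *Epcam* and *Krt8*, fibroblasts by collagen genes and *Dcn*, macrophages by *C1qa*, *C1qb* and *Csf1r*, cDC1 by *Xcr1* and *Clec9a*, migratory DCs by *Ccr7* and *Fscn1*, and T cells by *Cd3e* and *Cd3g*. For genes that had not set the gates, levels in the named type are given here, with none for macrophages. Their levels in the other types are mostly not given, so they show presence and not specificity. *Krt18* stood at 3304 and 3797 CPM in tumor cells of the CD11c- and CD4/CD8-selected matrix, *Col3a1* at 17735 and 16952 in fibroblasts, *Irf8* at 936 in cDC1, *Ccl22* at 1427 in migratory DCs, and *Trac* at 645 in CD4/CD8-selected T cells. The 42 CD11c-selected T cells carried mixed markers, with *Ccl22* at 672, and 22 of them came from 1 run. One run (run 3) held 130 of the 308 CD11c-selected tumor cells and 407 of the 782 CD4/CD8-selected macrophages. Selected values of these cells are therefore also given without it. Values given for all runs alone can also move without it.

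The upstream sequences of 4 genes are shown because they hold an ISRE or kappa B motif (defined next), and that of *Tap1* because it is shared with *Psmb9*. RefSeq start windows (GRCm38.p6) were matched for 8 of the 10 genes, all but *Tap2* and *Nlrc5*. Searched on both strands were an interferon-stimulated response element (ISRE, GAAANNGAAA), a gamma-activated site (GAS, TTCNNNGAA) and a kappa B site (GGGGANNCCC). Capitals mark the matches, and each line gives the 250 bases before the start, 5′ to 3′ on the gene's own strand.
H2-K1: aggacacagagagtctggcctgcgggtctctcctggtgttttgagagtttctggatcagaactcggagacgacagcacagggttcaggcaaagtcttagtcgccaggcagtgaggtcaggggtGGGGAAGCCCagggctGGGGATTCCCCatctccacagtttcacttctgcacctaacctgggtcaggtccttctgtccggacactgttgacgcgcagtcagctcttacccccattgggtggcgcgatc
H2-D1: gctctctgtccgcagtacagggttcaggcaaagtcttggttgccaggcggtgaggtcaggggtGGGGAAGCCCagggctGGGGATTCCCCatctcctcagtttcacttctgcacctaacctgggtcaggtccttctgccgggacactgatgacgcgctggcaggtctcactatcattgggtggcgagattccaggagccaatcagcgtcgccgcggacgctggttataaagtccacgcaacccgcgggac
B2m: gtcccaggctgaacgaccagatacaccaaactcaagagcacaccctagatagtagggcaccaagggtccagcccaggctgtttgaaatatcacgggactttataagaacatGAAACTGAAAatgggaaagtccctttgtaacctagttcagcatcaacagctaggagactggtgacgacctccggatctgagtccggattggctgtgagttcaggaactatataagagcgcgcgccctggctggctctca
H2-T23: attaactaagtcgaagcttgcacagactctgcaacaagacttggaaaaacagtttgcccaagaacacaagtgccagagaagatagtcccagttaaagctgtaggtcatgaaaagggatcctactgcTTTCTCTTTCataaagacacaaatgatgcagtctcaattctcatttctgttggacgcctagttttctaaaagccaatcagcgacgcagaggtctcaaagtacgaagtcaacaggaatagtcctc
Tap1: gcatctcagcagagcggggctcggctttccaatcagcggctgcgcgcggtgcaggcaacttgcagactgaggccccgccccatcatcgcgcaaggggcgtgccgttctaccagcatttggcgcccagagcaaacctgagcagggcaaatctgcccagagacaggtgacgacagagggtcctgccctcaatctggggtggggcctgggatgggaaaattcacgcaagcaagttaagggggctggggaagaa

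These lie at chr17:34000348-34000597 (minus strand) for *H2-K1*, chr17:35262844-35263093 (plus) for *H2-D1*, chr2:122147437-122147686 (plus) for *B2m*, chr17:36032702-36032951 (minus) for *H2-T23* and chr17:34187306-34187555 (plus) for *Tap1*. The heavy chain genes *H2-K1* and *H2-D1* held 3 kappa B matches each, of which the last 2 overlap and start 1 base apart, against 1.65% of all 32851 windows with a match. An exact match to the ISRE letters was found in *B2m* and *H2-T23*, 2 of the 8 genes, against 3.44% of windows. A GAS was found in *Psmb8* alone, 97 bases before its start, against 8.3% of windows. In the windows of *Psmb9*, *Tap1* and *Tapbp* none of the 3 motifs was found. There, and for the ISRE in *H2-K1* and *H2-D1*, this says only that these letters were not there. Sites that differ from the letters were not counted. The *Tap1* and *Psmb9* windows share 275 bases, as the genes start 226 bases apart on opposite strands. Whether counting used strand is not given in the sources used here, and reads at those ends cannot be told apart without it. Reads of the near-identical *H2-K1*, *H2-D1* and *H2-Q* genes are likewise uncertain between them.

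The pooled level of *B2m* was lower in tumor cells than in any other gated type. In tumor cells it stood at 1312 CPM (CI 1284 to 1340) among CD11c-selected and 1114 (CI 1090 to 1138) among CD4/CD8-selected cells, against 3668 and 3199 in macrophages of the same matrices. Over runs it lay at 747 to 1647 and 806 to 1679 in tumor cells and at 3243 to 4145 and 2969 to 4484 in macrophages, with no overlap. The runs of CD11c-selected fibroblasts (1615 to 1783) and cDC1 (1466 to 1952) did overlap those of tumor cells. The fold of tumor cells over macrophages was 0.358 (CI 0.35 to 0.365) and 0.348 (CI 0.34 to 0.356), and within runs it lay below 1 in 5 of 5 runs of each matrix. Without run 3 it was 0.25 and 0.35. Mitochondrial transcripts, which enter the CPM total, made up 9.27% and 7.86% of the UMIs of the median tumor cell and 4.85% and 4.98% of the median macrophage, and without cells over 10% the folds of *B2m* were 0.402 and 0.369.

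Against macrophages, the pooled levels of the heavy chain genes in tumor cells were less reduced than that of *B2m*, or not reduced. *H2-K1* stood at 1872 CPM in CD11c-selected tumor cells and 1875 in macrophages, a fold of 1.00 (CI 0.98 to 1.02), and at 1985 and 2316 in the CD4/CD8-selected matrix, a fold of 0.86. Without run 3 the CD11c-selected fold was 0.72 (CI 0.70 to 0.75), and over runs it lay on both sides of 1, so the equal pooled levels rest on that run. *H2-D1* was lower in tumor cells in 5 of 5 runs of each matrix, with pooled folds of 0.638 and 0.524. Without run 3 these were 0.46 and 0.61.

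Higher in tumor cells than in macrophages were *H2-T23* and *Tap2*. *H2-T23* stood at 491 and 441 CPM in tumor cells and 314 and 228 in macrophages, folds of 1.56 (CI 1.5 to 1.62) and 1.93. Without run 3 these folds were 1.42 and 1.36. *Tap2* stood at 107 and 94.6 against 58.3 and 40.8, folds of 1.83 (CI 1.69 to 1.99) and 2.32, and was higher in 5 of 5 runs of each matrix. Its partner *Tap1* stood at 59.7 and 53.9 in tumor cells against 87.4 and 67.7, folds of 0.68 and 0.80. *Tap1* was lower in 5 of 5 CD11c-selected runs and in 3 of 5 runs of the other matrix. *Psmb9* had folds of 0.541 and 0.63 and was lower in 5 of 5 runs of each matrix. *Psmb8* (0.80 and 0.98), *Tapbp* (0.873 and 0.787) and *Nlrc5* (0.765 and 0.49) were also below 1. Without run 3 the CD11c-selected folds of *Psmb8*, *Psmb9*, *Tap1* and *Nlrc5* were 0.57, 0.36, 0.52 and 0.63. In the other matrix those of *Tap2*, *Psmb8* and *Psmb9* were then 1.64, 0.76 and 0.46.

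In counts, with a fold of 1.5 or more as the mark, 2 members were higher in CD11c-selected tumor cells than in macrophages, against 38.6% of the 12435 genes tested, and 3 were lower, against 23.4%. Without run 3 these counts were 1 and 6. The shares over all genes were not recomputed without that run, so this change cannot be set against them. The CD4/CD8-selected matrix gave 2 higher (43.8% of all genes, and 1 member without run 3) and 4 lower (20.2%). The median fold of the members was 0.786 and 0.792, and of all genes tested 1.21 and 1.35. Of the wider pathway list, which adds the constitutive proteasome, loading factors, nonclassical class I genes and regulators, 7 of 33 tested were higher and 10 lower in the CD11c-selected matrix, and 5 of 32 were higher and 10 lower in the other. Macrophage transcripts carried into tumor cells were few, with *C1qa*, *C1qb* and *C1qc* together at 0.50% of their macrophage level in CD11c-selected tumor cells.

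**Figure D1:**
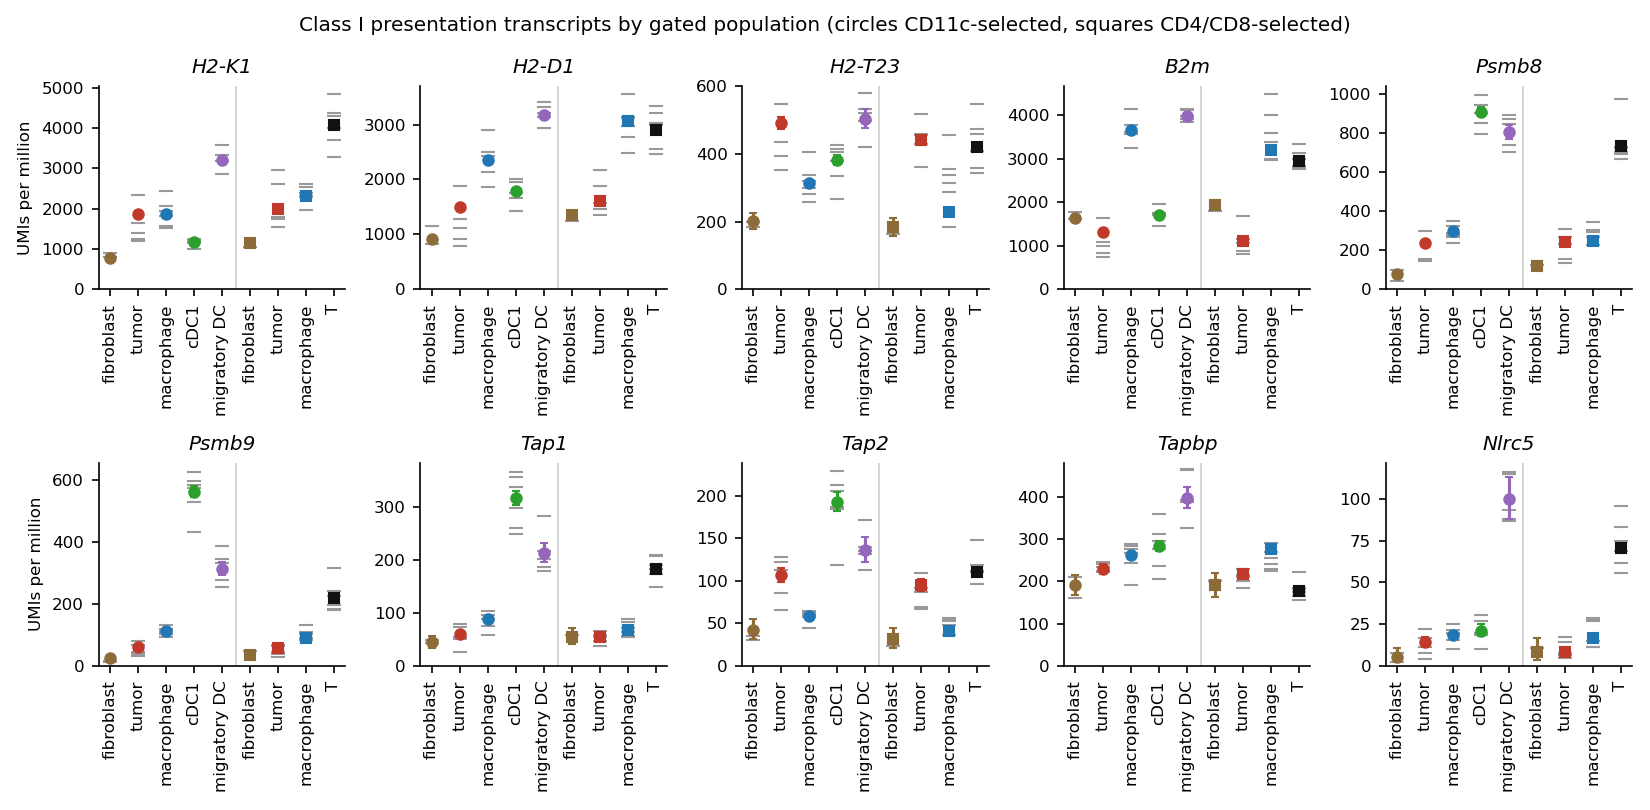
CPM (linear scale) of the 10 members in the gated cell types of both matrices, with the values of single barcode runs as small marks. The pooled level of *B2m* was lowest in tumor cells, at 1312 and 1114, and that of *Psmb9* highest in cDC1, at 563.

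Against T cells, tumor cells had less of 7 members by the same mark, and more of 0. Of all genes tested 26.2% were lower and 39.7% higher. *Nlrc5*, which switches on class I genes, stood at 8.28 CPM (CI 6.33 to 10.6) in tumor cells and 70.6 (CI 68.7 to 72.5) in T cells, a fold of 0.117 (CI 0.0896 to 0.151). *Psmb9* stood at 57.7 and 219, a fold of 0.264, and *B2m* at 1114 and 2954, a fold of 0.377. *H2-K1* had a fold of 0.486, *H2-D1* 0.553, *Psmb8* 0.329 and *Tap1* 0.296. *H2-T23* (fold 1.05), *Tap2* (0.861) and *Tapbp* (1.23) stayed inside the mark. In every one of 5 runs *H2-K1*, *H2-D1*, *B2m*, *Psmb8*, *Psmb9*, *Tap1*, *Tap2* and *Nlrc5* were lower in tumor cells and *Tapbp* was higher. The median fold of the members was 0.432, against 1.18 over all genes tested, and 18 of 32 pathway genes tested were lower and 7 higher.

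Fibroblasts had less of most members than tumor cells in the CD11c-selected matrix, but their pooled *B2m* level was not lower in either matrix. In the CD11c-selected matrix *H2-K1* stood at 785 CPM (CI 738 to 833) in 74 fibroblasts, a fold of 0.419 over tumor cells, *Psmb8* at 76.5, a fold of 0.322, and *H2-T23* at 201, a fold of 0.409. *B2m* stood at 1634 (CI 1567 to 1703), a fold of 1.25 (CI 1.19 to 1.31), and at 1946 in the CD4/CD8-selected matrix, a fold of 1.75 (CI 1.66 to 1.84). Without run 3 the first of these folds was 1.79, past the mark. Within the 2 CD11c-selected runs with enough cells of both types it was 0.98 and 1.79. In run 3 *B2m* stood at 1615 in fibroblasts and 1647 in tumor cells. The other folds in the CD11c- and CD4/CD8-selected matrix were 0.609 and 0.843 for *H2-D1*, 0.389 and 0.583 for *Psmb9*, 0.744 and 1.01 for *Tap1*, 0.396 and 0.333 for *Tap2*, 0.83 and 0.875 for *Tapbp* and 0.357 and 1.02 for *Nlrc5*, and in the latter matrix *H2-K1* had 0.58, *Psmb8* 0.501 and *H2-T23* 0.414. By the mark 0 members were higher (18.6% of all genes) and 7 lower (40.3%) in the CD11c-selected matrix, and 1 higher (19.4%) and 5 lower (36.5%) in the other, where 55 fibroblasts were gated. The members' median fold was 0.415 and 0.722, against 0.779 and 0.821 over all genes tested. The counts of the CD4/CD8-selected matrix lay near the shares of all genes. Without run 3 the CD11c-selected folds of *H2-D1*, *Psmb9* and *Tap1* were 0.91, 0.67 and 1.02. The 7 lower members there rest in part on that run. *Nlrc5* had only 7 and 8 UMIs in the fibroblasts of the 2 matrices.

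Among the DCs, the 359 cDC1, a subset known for cross-presentation to CD8+ T cells, had the highest pooled levels of *Psmb8*, *Psmb9*, *Tap1* and *Tap2*. The runs of cDC1 and migratory DCs were separate for *Psmb9* and overlapped for the other 3 genes. *Psmb9* stood at 563 CPM (CI 545 to 581; runs 433 to 627) in cDC1 and 114 (runs 92.1 to 133) in macrophages, a fold of 4.92 (CI 4.73 to 5.12). *Psmb8* was 3.06-fold, *Tap1* 3.61-fold and *Tap2* 3.31-fold higher, and all 4 were past the mark in 6 of 6 runs. *H2-K1*, *H2-D1* and *B2m* went the other way, with folds of 0.62, 0.76 and 0.463, lower in 6 of 6 runs, whereas the nonclassical *H2-T23* had a fold of 1.21 and was higher in 6 of 6 runs. *Nlrc5* (1.13) and *Tapbp* (1.08) lay on both sides of 1 over runs. The mark was passed by 4 members upward (16.6% of all genes) and 2 downward (30.7%), with a median fold of 1.17 against 0.926 over all genes.

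Migratory DCs, which carry antigen to lymph nodes, were higher in nearly the whole set. *H2-K1* stood at 3210 CPM (runs 2862 to 3583), *B2m* at 3972 (3844 to 4150) and *Nlrc5* at 100.1 (87.0 to 116). Over macrophages, 8 members were higher by the mark (19.3% of all genes) and 0 lower (34.6%), led by *Nlrc5* at 5.36-fold (CI 4.66 to 6.14), with a median of 2.03 against 0.860. The folds were 2.75 for *Psmb9*, 2.7 for *Psmb8*, 2.44 for *Tap1*, 2.34 for *Tap2*, 1.71 for *H2-K1*, 1.6 for *H2-T23* and 1.51 for *Tapbp*, while *H2-D1* (1.35) and *B2m* (1.08) stayed inside the mark. Over cDC1, 4 were higher (20.8%) and 1 lower (26.5%), with a median of 1.36 against 0.926. *H2-K1* (2.75-fold), *B2m* (2.34-fold), *H2-D1* (1.77-fold) and *Nlrc5* (4.76-fold) were past the mark in 5 of 5 runs, whereas *Psmb8* (0.884), *Psmb9* (0.559), *Tap1* (0.676) and *Tap2* (0.706) were lower in 5 of 5. *H2-T23* (1.32) and *Tapbp* (1.4) lay between. The regulator *Irf1* was 5.14-fold higher in migratory DCs than in macrophages, and the loading factors *Calr* and *Pdia3* had folds of 0.51 and 0.45.

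Macrophage transcripts were found in both DC gates, with the C1q genes at 7.30% of their macrophage level in cDC1 and 10.93% in migratory DCs. At that rate carried-over RNA would make up 1.48% to 15.76% of a member's level in cDC1 and 2.04% to 10.09% in migratory DCs.

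T cells were higher than macrophages in 7 members of the CD4/CD8-selected matrix (39.2% of all genes) and lower in 1 (29.2%), with a median fold of 2.11 against 1.17. *H2-K1* stood at 4085 CPM (runs 3286 to 4842) against 2316 (1963 to 2625), and *Nlrc5* at 70.6 against 16.9, a fold of 4.18. *Tapbp* went the other way, at 177 (runs 157 to 222) against 276 (225 to 289), a fold of 0.642, and was lower in 6 of 6 runs. *Psmb8* (2.97), *Tap2* (2.69), *Tap1* (2.68), *Psmb9* (2.39), *H2-T23* (1.84) and *H2-K1* (1.76) were past the mark, and *H2-D1* (0.948) and *B2m* (0.923) were not. Without run 3 the fold of *H2-T23* was 1.23 and that of *Tapbp* 0.694, which left 6 members higher and 0 lower. The shares over all genes were not recomputed without that run. The folds of *Nlrc5*, *Psmb8* and *Tap2* were then 3.10, 2.38 and 2.02. In the CD11c-selected matrix 6 members were higher (43.8%) and 0 lower (19.7%), with a median of 1.65 against 1.33, from the 42 T cells of mixed markers. They were *Nlrc5* (3.37), *Tap2* (2.1), *Tap1* (1.97), *Psmb9* (1.68), *Psmb8* (1.65) and *H2-K1* (1.63), and the folds of *H2-T23* (1.33), *Tapbp* (1.19), *H2-D1* (1.03) and *B2m* (0.986) stayed inside the mark.

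**Figure D2:**
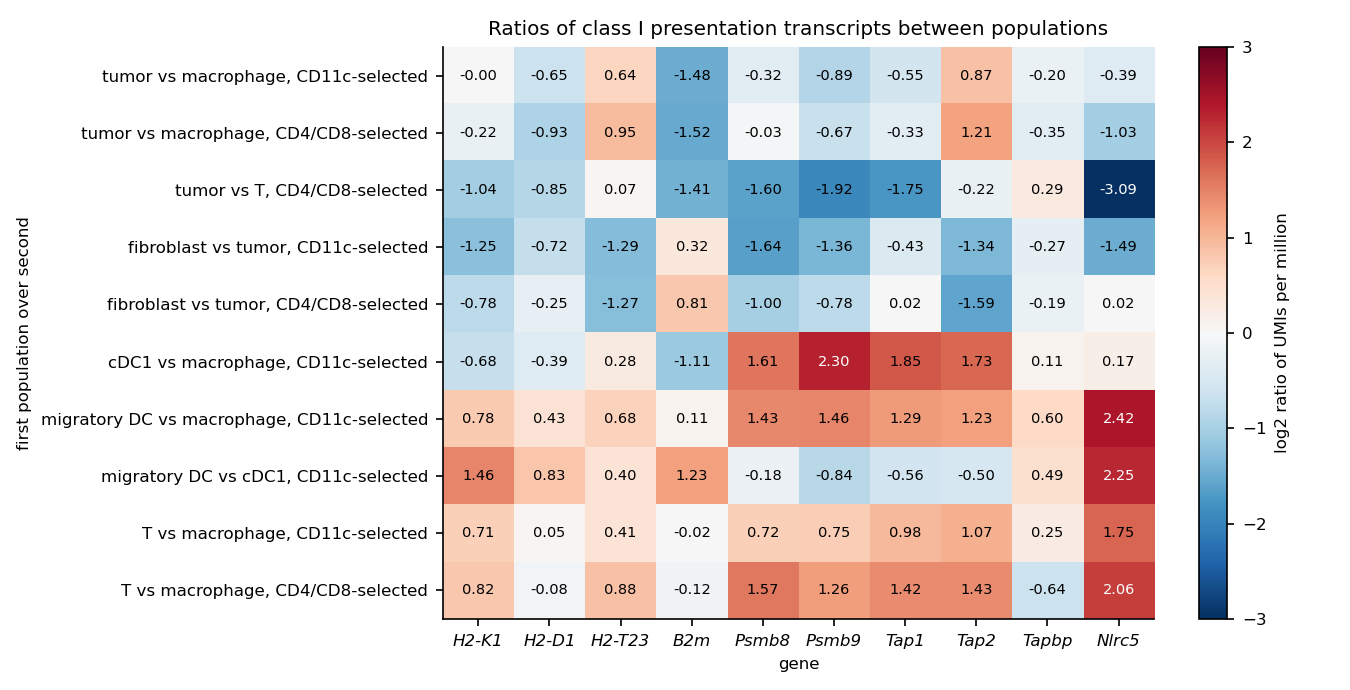
Heatmap of the log2 ratio of CPM of each of the 10 members between pairs of gated cell types, first over second. No intervals are drawn. The median fold of the members was 2.03 in migratory DCs over macrophages and 0.432 in tumor cells over T cells.

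The ratio of an inducible proteasome subunit to its constitutive counterpart was compared between cell types and not between genes, since UMIs are not scaled to transcript length. There were 0.225 UMIs of *Psmb9* per UMI of *Psmb6* in CD11c-selected tumor cells (runs 0.107 to 0.285) and 0.196 in the others, 0.456 in CD11c-selected macrophages (runs 0.372 to 0.558), 1.22 in T cells (1.07 to 1.61), 1.66 in migratory DCs (1.38 to 1.97) and 2.70 in cDC1 (2.05 to 2.95). The runs of tumor cells and macrophages of the CD11c-selected matrix did not overlap, nor did those of migratory DCs and cDC1. Fibroblasts, at 0.194 and 0.225 in the CD11c- and CD4/CD8-selected matrix, were near tumor cells. *Psmb8* per *Psmb5* placed migratory DCs first at 6.12 (CI 5.45 to 6.89), then cDC1 at 4.63 (CI 4.36 to 4.92) and T cells at 4.13. In the CD11c-selected matrix it was 1.35 in tumor cells and 1.87 in macrophages. In the other matrix it was 1.08 and 1.05, so tumor cells were not lower there. The third pair did not follow, as *Psmb10* per *Psmb7* was 0.768 in cDC1 and 2.17 in T cells. It was 0.496 and 0.411 in tumor cells of the 2 matrices and 1.13 and 1.08 in macrophages.

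Tumor cells had more heavy chain UMIs per *B2m* UMI than myeloid cells. Summed *H2-K1* and *H2-D1* gave 2.57 per *B2m* UMI (runs 2.52 to 2.68) in CD11c-selected tumor cells and 3.23 (3.06 to 4.05) in the others. Macrophages had 1.15 (0.962 to 1.37) and 1.68 (1.35 to 1.82), cDC1 1.74 (1.63 to 1.87), migratory DCs 1.61 (1.40 to 1.75) and CD4/CD8-selected T cells 2.37 (2.05 to 2.62). The runs of tumor cells lay above those of each DC type and of macrophages, and those of CD11c-selected tumor cells overlapped the runs of T cells.

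*B2m* levels also spread widely among tumor cells. After each cell was thinned to 2000 UMIs, 186 of 232 CD11c-selected tumor cells had a *B2m* UMI, 80.2% (CI 74.5% to 85.1%, Clopper-Pearson), and 168 of 229 in the other matrix, 73.4% (CI 67.1% to 79.0%), against 99.4% and 99.3% of macrophages. In fibroblasts the share was 80.3% of 66 cells (CI 68.7% to 89.1%) in the CD11c-selected matrix and 94.5% of 55 cells (CI 84.9% to 98.9%) in the other. Unthinned, the shares of tumor cells were 90.9% and 88.2%. Such a share falls with a lower mean level alone, so it is no measure of unevenness. An *H2-K1* UMI was found in 88.8% and 91.7% of the thinned tumor cells and an *H2-D1* UMI in 84.5% and 90.8%. The interval of *H2-D1* overlapped that of *B2m* among CD11c-selected cells and not among the others. In cells of 5000 UMIs or more, the upper quartile of the *B2m* level was 3.89 and 4.20 times the lower in tumor cells and 1.77 and 1.64 times in macrophages. In fibroblasts it was 2.31 and 1.90 times. In the same tumor cells the ratio was 2.83 and 2.58 for *H2-K1* and 2.57 and 2.03 for *H2-D1*. Counting error adds to these ratios and weighs more at lower levels. *C1qa* was found in 4.31% of the thinned CD11c-selected tumor cells and 96.8% of macrophages.

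Tumor cells were then split by their own *B2m*, in 2 ways, both chosen after the data were seen. *B2m* sets the groups and is no result. In the first split, on thinned UMIs, cells with 3 or more *B2m* UMIs were set against cells with 0, and since the draw is random it was repeated 20 times. The median fold of *H2-K1* was 2.49 (range over draws 1.80 to 3.24) in CD11c-selected and 2.60 (2.21 to 2.87) in CD4/CD8-selected tumor cells, and that of *H2-D1* 2.39 and 2.08. *Psmb9* had medians of 2.32 and 2.55 but ran from 1.55 to 4.5 over draws in the first matrix. Without run 3 it had a median of 1.24 there, from 0.686 to 2.23, and lay above 1 in 16 of 20 draws.

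The other split put the tumor cells of 5000 or more UMIs into low, middle and high groups of near-equal size by their *B2m* level, with no draw. *H2-K1* was 3.40-fold (CI 3.21 to 3.60) and 3.34-fold (CI 3.18 to 3.50) higher in the high than in the low group, *H2-D1* 3.27- and 2.49-fold, *Psmb8* 3.29- and 2.52-fold and *Tap1* 2.56- and 2.63-fold. *Psmb9* was 3.22- and 3.35-fold higher, but 1.55- and 1.89-fold without run 3, so its size rests on that run and on how the cells were split. *Tap2* (1.33 and 1.54) and *Tapbp* (1.40 and 1.46) differed less. The keratin gene *Krt8* (0.97 and 1.16) and the constitutive *Psmb6* (1.07 and 1.02) stayed near 1. In macrophages split the same way *H2-K1* was 2.07- and 1.62-fold and *Psmb8* 1.17- and 1.21-fold higher. *C1qa* was higher in the high group of CD11c-selected tumor cells, at 4.83-fold and 31.0 CPM, and its part in the result was not tested. Of that group, 49 of 67 cells came from run 3, against 20 of 68 in the low group.

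**Figure D3:**
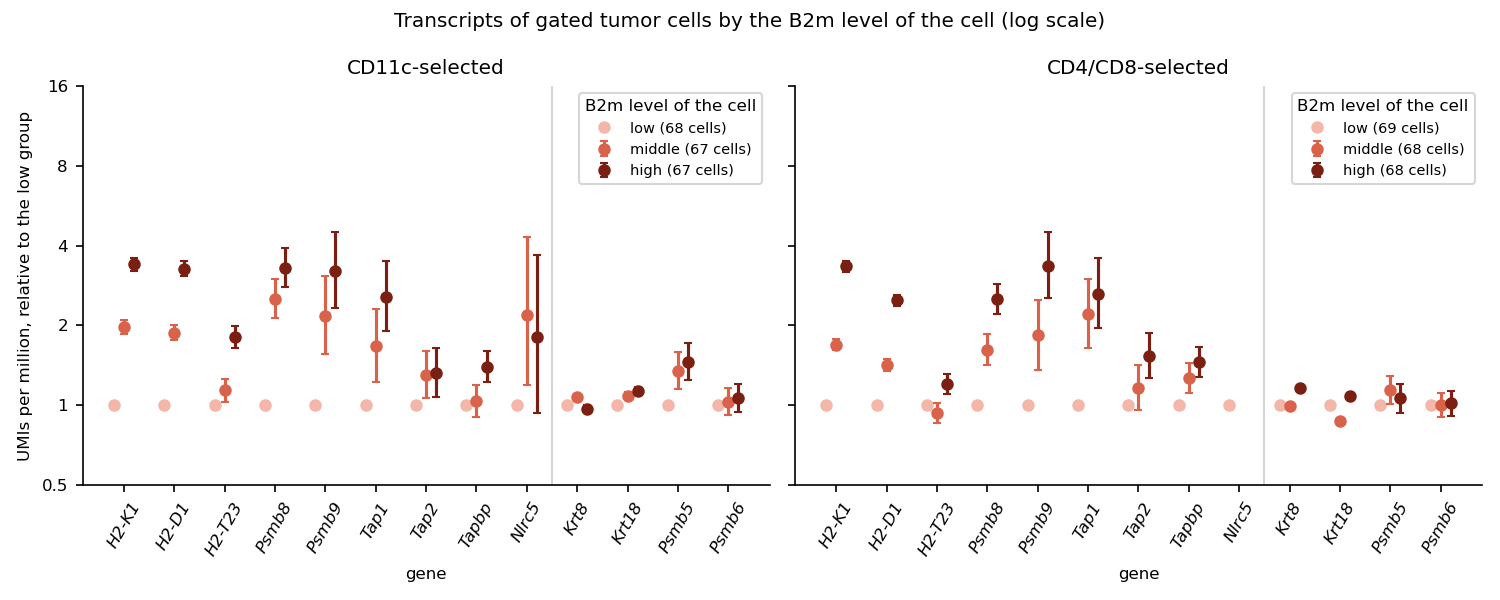
Levels relative to the low group (log scale) in tumor cells of 5000 or more UMIs, grouped by the *B2m* level of the cell, with exact 95% intervals for counting error. *H2-K1* was 3.40- and 3.34-fold higher in the high group, and *Krt8* 0.97 and 1.16.

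All 10 members were higher in CD8 T cells with more interferon-induced transcripts. The 10904 cells were grouped by their UMIs of *Ifit1*, *Ifit3* and *Mx1* together, with 8101 cells at 0, 1262 at 1, 683 at 2 or 3, and 858 at 4 or more, and each member's level rose over the 4 groups. *Tapbp*, which was lower in T cells than in macrophages, rose most, from 152 to 191, 238 and 363 CPM, a fold of 2.39 (CI 2.27 to 2.51). *H2-T23* rose from 363 to 454, 583 and 719, a fold of 1.98 (CI 1.92 to 2.05). *Tap1* (1.84), *Psmb9* (1.79), *Nlrc5* (1.77), *Tap2* (1.7) and *Psmb8* (1.66) were between, and *B2m* (1.29), *H2-K1* (1.25) and *H2-D1* (1.20) rose least.

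In each of 6 runs all 10 members were higher in the highest group than in the group at 0. The fold within runs lay at 2.05 to 2.73 for *Tapbp* and 1.74 to 2.13 for *H2-T23*. By the mark 7 members were higher, against 6.05% of all genes tested, and 0 were lower, against 5.99%, with a median of 1.74 against 0.952. Of the wider pathway, 8 of 32 genes were higher and 0 lower. The inducible subunit *Psmb10* was 2.25-fold higher, while the constitutive *Psmb5* (0.83), *Psmb6* (0.96) and *Psmb7* (0.97) and the loading factors *Calr* (0.93) and *Canx* (0.88) were not. Depth was close, with medians of 5205.5 UMIs per cell in the highest group and 4911 at 0.

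**Figure D4:**
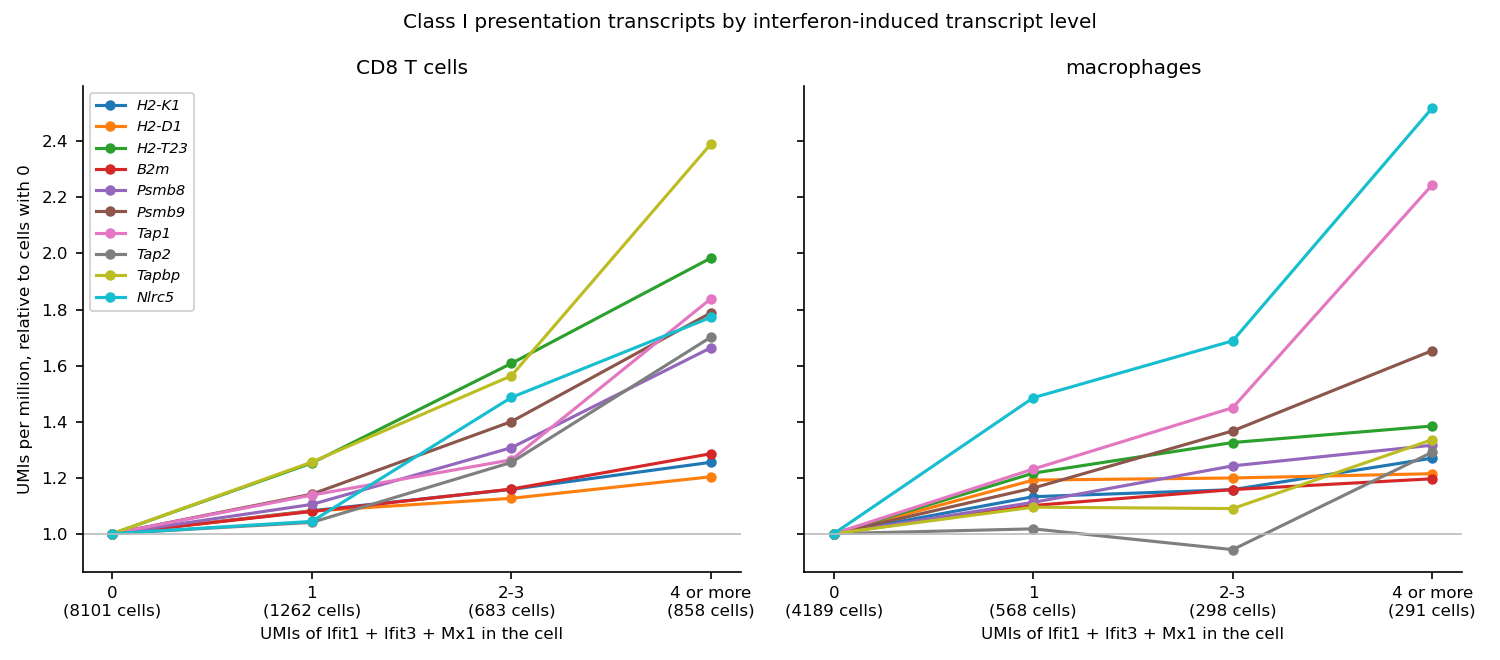
CPM of each member relative to cells with 0, by the cell's UMIs of *Ifit1*, *Ifit3* and *Mx1*, in CD8 T cells and macrophages. No intervals are drawn. In CD8 T cells *Tapbp* rose from 152 to 363 CPM and *H2-K1* from 3858 to 4841 CPM.

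CD11c-selected macrophages showed another order. *Nlrc5* went from 15.1 to 37.9 CPM, a fold of 2.52 (CI 2.13 to 2.97), *Tap1* from 75 to 168, a fold of 2.24, and *Psmb9* had a fold of 1.65, whereas *Tapbp* was at 1.34 and *H2-T23* at 1.38. *Psmb8* (1.32), *Tap2* (1.29), *H2-K1* (1.27), *H2-D1* (1.21) and *B2m* (1.2) were also inside the mark. By the mark 3 members were higher (9.86% of all genes) and 0 lower (4.6%), with a median of 1.33 against 0.990. All members but *Psmb8*, which was higher in 5, were higher in 6 of 6 runs. The fold of *Tapbp* within runs did not overlap between CD8 T cells and macrophages. The cut of 4 UMIs was the same in both. The median cell at or above it held 5205.5 UMIs in CD8 T cells and 12995 in macrophages. The cut therefore marks unlike shares of a cell's RNA, and the 2 cell types were not compared at matched depth. The highest group of macrophages was deeper (median 12995 UMIs, and 8159 in the group at 0). When both groups were limited to cells of 5000 to 15000 UMIs, a range chosen after seeing the data, 5 members were higher by the mark. The count of 3 therefore moved with the depth of the cells used. The share over all genes was not recomputed in that range, so the count of 5 cannot be set against it.

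**Figure D5:**
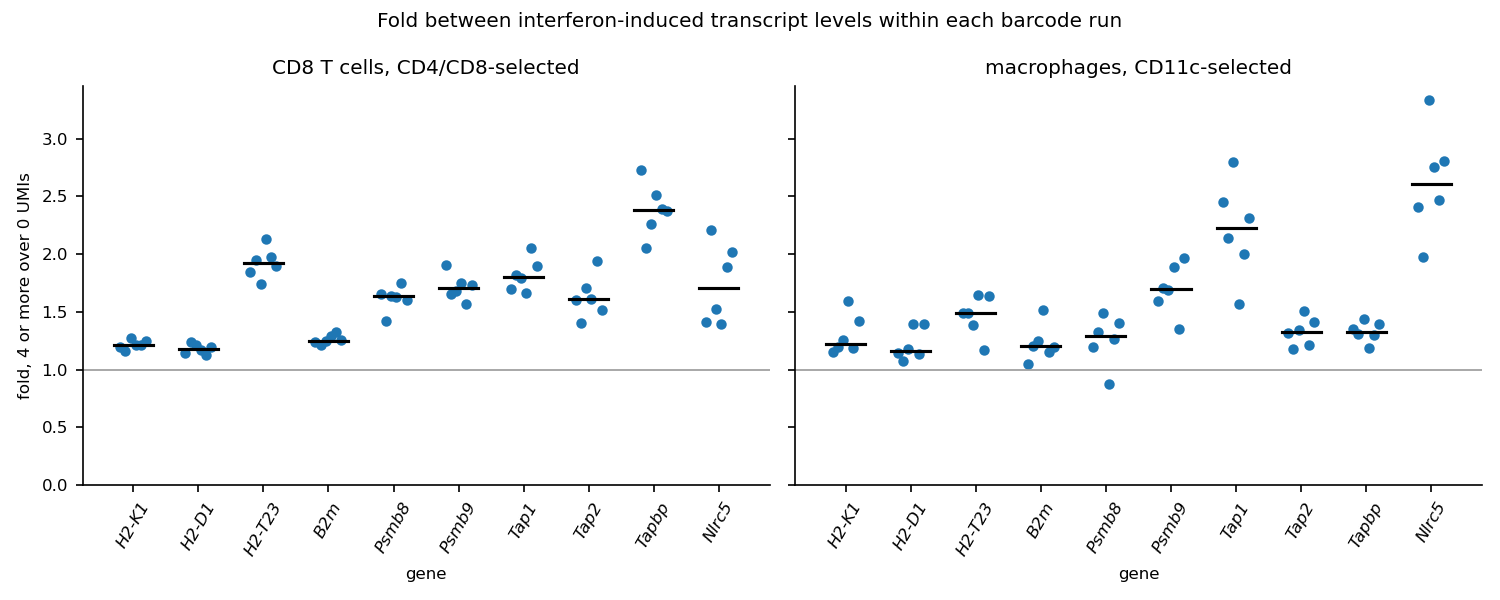
Fold of each member between cells with 4 or more and 0 UMIs of *Ifit1*, *Ifit3* and *Mx1* within each of 6 barcode runs, with the median as a bar. *Tapbp* lay at 2.05 to 2.73 in CD8 T cells, and *Nlrc5* at 1.97 to 3.33 in macrophages.

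Few tumor cells had such transcripts. Between the 33 CD11c-selected tumor cells at 4 or more UMIs and those at 0, all 10 members were higher, with *B2m* at 1.74-fold and *Tap1* at 2.42-fold. Of the 33 cells, 21 came from run 3, and within that run the folds were 1.41 and 1.96. Among the 37 CD4/CD8-selected tumor cells 9 were higher, with *B2m* at 2.24-fold, and *Psmb9* had a fold of 0.81. The share of all genes that were higher was not computed for tumor cells, and depth was not matched. These counts therefore describe the cells and are no result about the members.

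The members did not share 1 pattern over the 11 cell populations of at least 50 cells. The points share libraries and depth. CD8 and CD4 T cells also entered beside the CD4/CD8-selected T cells that hold them, which gives T cells more weight. As a description only, *Psmb9* followed *Psmb8* (Pearson r = 0.970) and *Tap1* (0.967), and *H2-K1* followed *H2-D1* (0.889). *Tapbp* did not follow *H2-K1* (-0.126). The genes outside the set closest to its mean pattern, of 9049 considered, were *Rab8a* (0.984), *Eipr1* (0.979), *Mxd1* (0.975), *Traf1* (0.975), *Epsti1* (0.973), *Madd* (0.970), *Rnf44* (0.969), *Map3k1* (0.967), *Donson* (0.961) and *Med11* (0.958).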

How the data were processed

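Single cells of PyMT tumors were measured on the 10x platform. For each selection the authors deposited 1 matrix of raw UMI counts, not normalized, and the submitters' processing notes name Cell Ranger 3.0.2 and mm10. No source used here names filters on cells or the use of strand. A cell needed 200 or more detected genes (341 and 295 barcodes left out), and cells in more than 1 gate were left out (4 and 1). No doublet caller was run. UMIs were summed over gated cells. Folds carry exact conditional binomial intervals, and a gene counted as higher or lower at 1.5-fold or more after 1 UMI was added to each sum, among genes with at least 50 UMIs over both groups. Carry-over was scaled by the C1q genes. Scripts were tested on simulated data. The planned edgeR test of genotypes was not run, since barcodes name no sample.

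Members, gates and lists were chosen with earlier results of these data known, and all members were named in each comparison of 2 cell types. The 10 genes of closest pattern were ranked by Pearson correlation of log2(CPM + 1). Both splits of tumor cells by *B2m*, and the interferon groups limited to 5000 to 15000 UMIs, were chosen after the data were seen. The thinned split was computed first, from a single draw whose seed was changed once to match the thinned shares. The split by level and the 20 draws were added after that draw had been seen, and both splits are given. Alternatives covered gates, filters, the denominator, a mean over cells and each barcode run left out. Gene positions and start windows came from GENCODE M21 and RefSeq. Python 3.11.15, numpy 2.4.6, scipy 1.17.1 and pandas 2.3.3 were used.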

Additional observations from a re-analysis of the deposited data

Results flagged for a closer look

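Of 40 groups of 6 barcode runs tested, 2 held a run far from the others, and chance flags about 1 in 20 groups. *Tap2* in CD11c-selected macrophages stood at 44.9 CPM in run 4, against 57.9 to 64.9 in the other runs. *Psmb8* in CD8 T cells stood at 983 CPM in run 3, against 694 to 747 in the others.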

How the results depend on the processing

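No paired analysis was possible because the barcodes name no sample and no test was run. Of 318 recomputed counts of members past 1.5-fold, 301 stayed within 1.5 times the value given and 17 moved. Of 1590 recomputed folds of single members, 1238 stayed inside the 95% counting interval of the fold given, and 6 differed from it by over 1.5 times. In all, 35 lay on the other side of 1, of which 34 belonged to folds inside the 1.5-fold mark. The other, a fold past the mark that turned, was *Psmb9* in CD11c-selected T cells over macrophages, at 0.897 without run 1, with 32 T cells left, in a range of 0.897 to 2.08 over the runs left out. Leaving out each run in turn, members higher in tumor cells than macrophages ran from 1 to 2 in each matrix, and those lower from 3 to 6 among CD11c-selected cells. Members higher in fibroblasts than tumor cells ran from 0 to 1 among CD11c-selected cells, those lower in migratory DCs than cDC1 from 1 to 3, and those lower in CD4/CD8-selected T cells than macrophages from 0 to 1. Members higher in CD11c-selected tumor cells than macrophages fell to 1 with positive markers only, with a mean over cells, and without the top 5 percent of cells by UMIs. Without mitochondrial and ribosomal genes in the denominator, members lower in cDC1 than macrophages came to 1, in migratory DCs than cDC1 to 2, and in CD4/CD8-selected T cells than macrophages to 0. The count for migratory DCs and cDC1 was also 2 with positive markers only and without the top 5 percent of cells. In macrophages of 5000 to 15000 UMIs, chosen after seeing the data, 5 members were higher with interferon transcripts. The shares over all genes were not recomputed for these alternatives, and the cause was not tested for any of them. In tumor cells split by *B2m*, the fold of *Psmb9* moved with the split, the draw and run 3. Samples are pooled, so no value has a replicate error.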
